A study of Mus musculus with 12 samples.

Results

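The mitochondrial SLC25 carriers were followed in mouse hearts without ERRα, with an ErbB2 knock-in, or with both alleles. Members were the probe sets annotated to exactly 1 gene with an Slc25a symbol, 1 probe set a gene, which gave 45 of the 22180 genes tested. Of these, 39 had a mean above the 40th percentile of all probe sets, a log2 value of 4.10. Carriers under other symbols, such as Ucp1 and Ucp3, were not counted as members and are described further below. RNA came from powdered whole hearts of male FVB mice aged 15 weeks, and 3 hearts a group were hybridized to Affymetrix Mouse Gene 2.0 ST arrays. The WT group carried neither allele, ErbB2 KI mice carried an ErbB2 cDNA knock-in, ERRα KO mice lacked ERRα, the orphan nuclear receptor encoded by Esrra, and KI:KO mice, from a cross of these lines, carried both alleles. The authors describe the mice as whole-body models. Values are log2 RMA values, in which 1 unit is a doubling, and since probes differ in response only changes of a gene are compared between genes.

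SLC25 proteins sit in the inner mitochondrial membrane, with few exceptions, and exchange nucleotides, phosphate, metabolic acids, amino acids, cofactors and metals between matrix and cytosol. In cardiomyocytes, which are dense in mitochondria, the ADP/ATP carriers export the ATP that contraction uses. ERRα activates many genes of mitochondrial energy metabolism through a half-site that reads TCAAGGTCA in its extended form, and ErbB2 is the neuregulin co-receptor of cardiomyocytes.

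Both targeted genes matched the labels. Esrra ranged from 7.40 to 7.74 in the 6 hearts with ERRα and from 6.17 to 6.43 in the 6 without. Erbb2 ranged from 6.39 to 6.80 in the 6 hearts without the knock-in and from 5.61 to 5.97 in the 6 with it. Markers of cell types are counted as called where they passed an adjusted p under 0.05 in the test described below. Cardiomyocyte markers averaged 12.31 to 12.46 in every heart, with 1 of 8 called lower in KI:KO against WT (median change -0.11). Macrophage markers averaged 7.33 to 7.54 in WT and ErbB2 KI hearts, 7.59 to 8.20 in ERRα KO hearts and 8.17 to 8.39 in KI:KO hearts. Of these markers 8 of 10 were called higher in KI:KO against WT (median change 0.84). Fibroblast markers had a median change of 0.83 in KI:KO hearts against WT, with 1 of 7 called higher. Between the 6 hearts without ERRα and the 6 with it, 8 of 10 macrophage markers (median change 0.6) were called higher. In that comparison 2 of 7 fibroblast markers (0.53) were called higher and 1 of 8 cardiomyocyte markers (-0.06) lower. In whole hearts fewer cells of a type and less RNA per cell cannot be told apart, and the part of these shifts in the carrier values below was not tested. On 1 array of each group (replicate 2 of WT and of ERRα KO, replicate 3 of ErbB2 KI and of KI:KO) values stood apart from the other 8 arrays on the first component of the residuals; the averaged changes of called carriers are given with and without this set of 4.

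5 members changed when ERRα was lost, and no other member was called. Slc25a34, Slc25a36 and Slc25a42 fell and Slc25a5 and Slc25a39 rose when the 6 hearts without ERRα were compared with the 6 with it, the effect being averaged over both ErbB2 genotypes. These 5, 2 higher and 3 lower (together 11.1% of 45), passed limma with an adjusted p (Benjamini-Hochberg, all genes) under 0.05. Of all genes 3.5% were called higher and 3.27% lower. Background shares here are by direction, so a member share of both directions is to be set beside their sum. The same 5, 2 higher and 3 lower, were called in KI:KO against WT (background 2.94% higher and 2.66% lower). In KI:KO against ErbB2 KI 4 were called (8.89%), 2 higher and 2 lower, without Slc25a34 (background 2.22% higher and 1.69% lower). In ERRα KO against WT Slc25a34 alone was called, as lower (2.22% of members, background 1.14% higher and 1.21% lower). These comparisons share arrays and are not independent of each other.

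No carrier was called for the ErbB2 knock-in. None passed in ErbB2 KI against WT, where 0.0135% of all genes were called and 1 member, Slc25a1 (2.22%), had an unadjusted p under 0.05, as did 5.33% of all genes. None passed in KI:KO against ERRα KO (background 0.329%), for the knock-in averaged over both ERRα genotypes (background 0.122%) or for the interaction of the alleles (background 0.00902%). At an unadjusted p under 0.05 these held 4 members (8.89%, against 10.6% of all genes), 4 members (8.89%, against 9.06%) and 1 member (2.22%, against 7.06%). At the threshold of the study's methods, a change of 1.2-fold or more with an unadjusted p under 0.05, taken here from limma, 1 member stood in ErbB2 KI (2.22%, against 4.3% of all genes), 7 in ERRα KO (15.6%, against 10.4%), 10 in KI:KO against WT (22.2%, against 14.6%) and 11 in KI:KO against ErbB2 KI (24.4%, against 13%). The 3 hearts of a genotype lay wholly above or below the 3 WT hearts for 4 members in ErbB2 KI (8.89%, against 11.7% of all genes), for 14 in ERRα KO (31.1%, against 20.1%) and for 13 in KI:KO (28.9%, against 22.9%). The median change of the family was -0.02 with the knock-in alone, -0.03 with ERRα loss alone and -0.03 in KI:KO hearts, against 0, 0 and -0.01 over all genes. Of the 45 members, 42, 35 and 31 differed from WT by less than 0.2 in these genotypes.

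**Figure D1:**
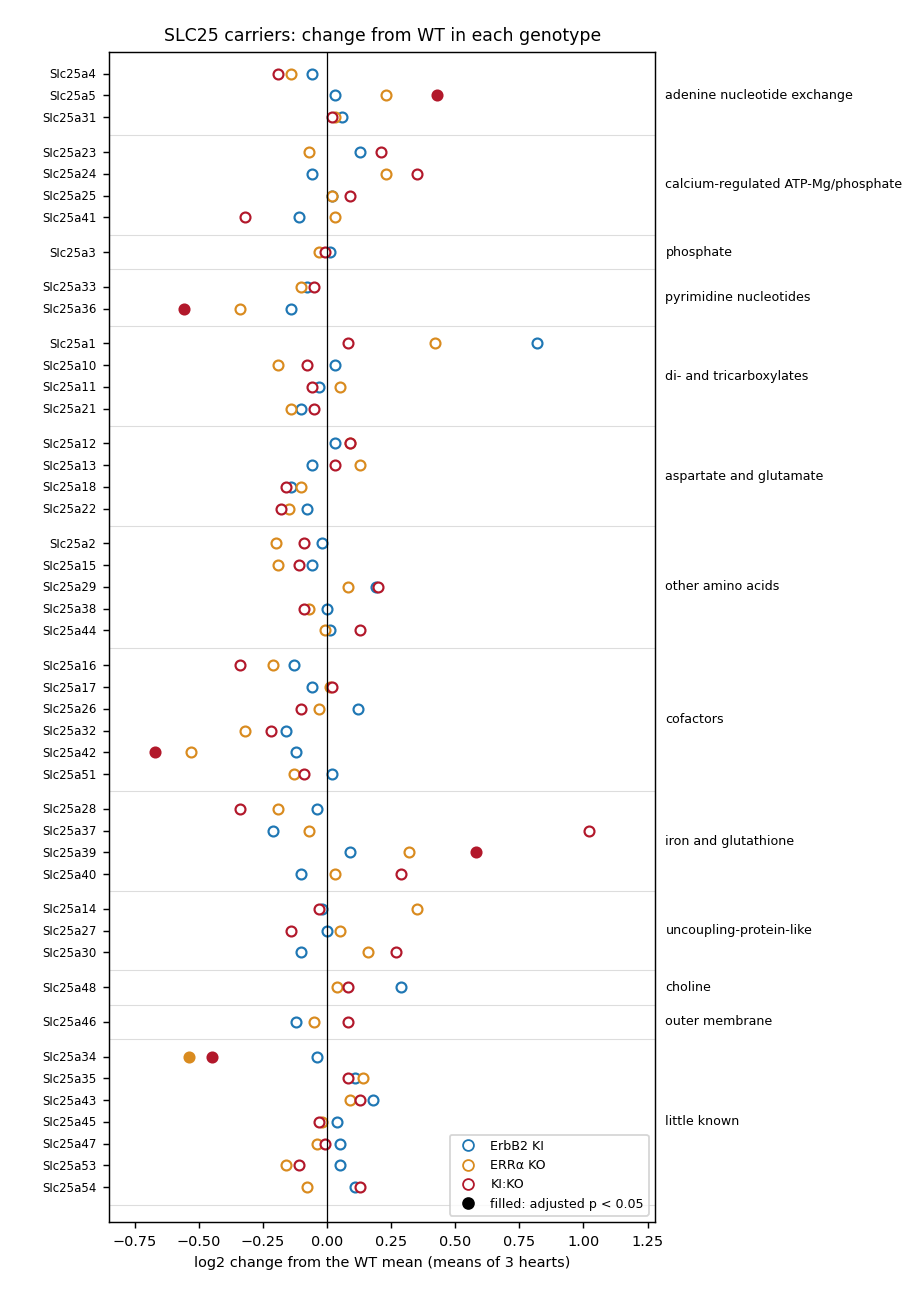
Each row is a carrier, ordered by substrate group, and each point its log2 change from the WT mean in ErbB2 KI, ERRα KO or KI:KO hearts (means of 3 hearts); filled points passed an adjusted p under 0.05. Most points lie near 0, and the filled points are Slc25a34 in 2 genotypes and Slc25a5, Slc25a36, Slc25a39 and Slc25a42 in KI:KO.

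Promoter sequence was available from RefSeq (GRCm38.p6) for 35 of the 45 members, from 250 bases before to 50 after each start, and is shown for the member that fell with a half-site, for the called member that fell most and for the called member that rose most. The letters AAGGTCA, searched on both strands, occurred in 1 of the 35 members, Slc25a34, and in 5.38% of all genes in the table. The extended letters TCAAGGTCA, which contain the shorter motif, occurred in 0 of the 35 and in 0.47% of all genes. In Slc25a34 the half-site read TGACCTT on the printed strand, in capitals below, from base -119 to base -113 before the start. The 250 bases upstream of the start are printed 5′ to 3′ on the strand of the gene, at chr4:141623835-141624084 (minus strand) for Slc25a34, chr8:70212282-70212531 (minus strand) for Slc25a42 and chr11:102407518-102407767 (minus strand) for Slc25a39, the first in part and the last wholly within the annotated span of its gene.
Slc25a34: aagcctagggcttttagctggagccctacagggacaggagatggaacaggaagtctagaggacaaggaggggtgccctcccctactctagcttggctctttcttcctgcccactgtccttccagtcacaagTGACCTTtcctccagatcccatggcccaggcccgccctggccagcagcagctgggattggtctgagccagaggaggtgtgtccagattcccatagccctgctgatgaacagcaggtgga
Slc25a42: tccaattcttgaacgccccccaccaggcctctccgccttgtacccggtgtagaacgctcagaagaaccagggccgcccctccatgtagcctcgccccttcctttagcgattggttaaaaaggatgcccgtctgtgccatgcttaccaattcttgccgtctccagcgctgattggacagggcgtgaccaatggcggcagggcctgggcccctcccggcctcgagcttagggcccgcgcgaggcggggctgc
Slc25a39: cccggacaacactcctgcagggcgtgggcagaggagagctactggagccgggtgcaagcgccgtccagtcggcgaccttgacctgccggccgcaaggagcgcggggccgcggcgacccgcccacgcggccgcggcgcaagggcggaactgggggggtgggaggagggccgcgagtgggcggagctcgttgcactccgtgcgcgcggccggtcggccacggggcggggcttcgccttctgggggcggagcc
Slc25a34 had 1 CpG dinucleotide in this window, the only one with at most 1 among the 45 promoters that the table lists for the 35 matched members, against 18.8% of all promoters. Slc25a42 had 18, Slc25a36 24, Slc25a39 35 and Slc25a5 14, and the member promoters had a median of 12. A match of letters is a description of the window and carries no test.

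Slc25a42 brings coenzyme A into the matrix in exchange for adenine nucleotides, as shown for the human protein. It spans chromosome 8 from 70184340 to 70212281 on GRCm38. Its log2 values were 8.94, 9.04 and 8.92 in WT hearts, 8.84, 8.65 and 9.03 in ErbB2 KI hearts, 8.49, 8.28 and 8.55 in ERRα KO hearts and 8.11, 8.52 and 8.28 in the KI:KO hearts. All 6 hearts without ERRα lay below all 6 with it. Sets of 6 that did not overlap, in either direction, were found for 4 members (8.89%), Slc25a34, Slc25a39, Slc25a42 and Slc25a51, and for 4.88% of all genes. Slc25a42 fell by 0.53 on the log2 scale with ERRα loss (SE 0.09, adjusted p = 0.00354) and by 0.67 in KI:KO against WT (SE 0.13, adjusted p = 0.00979). In ERRα KO against WT the change was -0.53 (adjusted p = 0.0593). The call in KI:KO against ErbB2 KI (-0.54, adjusted p = 0.0384) was lost on leaving out any 1 of 9 arrays (adjusted p 0.0519 to 0.137), the exceptions being ErbB2 KI replicate 2, ERRα KO replicate 2 and KI:KO replicate 2. The averaged change and that in KI:KO against WT were called whichever array was left out, and without the set of 4 they were -0.42 (adjusted p = 0.0697) and -0.62 (adjusted p = 0.0707).

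The other cofactor carriers did not pass. Slc25a16, a relative also linked to coenzyme A, was 8.19, 8.29 and 7.97 in WT and 7.71, 7.84 and 7.89 in KI:KO hearts, which did not overlap (-0.34, SE 0.11, adjusted p = 0.113). Slc25a32, which carries folates and FAD, was 6.74, 6.91 and 6.88 in WT and 6.49, 6.55 and 6.53 in ERRα KO hearts (-0.32, SE 0.09, adjusted p = 0.118). Slc25a51, the NAD carrier, was 5.23 to 5.30 with ERRα and 4.99 to 5.22 without, a change of -0.12 (adjusted p = 0.316) between sets of hearts that did not overlap. Slc25a17 of peroxisomes and Slc25a26, the S-adenosylmethionine carrier, differed from WT by -0.10 to 0.12 across the genotypes.

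Slc25a34 is an orphan carrier related to the yeast oxaloacetate carrier, and lies on chromosome 4 from 141618819 to 141623891. It was 8.49, 8.76 and 8.64 in WT hearts, 8.65, 8.48 and 8.63 in ErbB2 KI hearts, 8.31, 7.97 and 7.98 in ERRα KO hearts and 8.08, 8.34 and 8.12 in the KI:KO hearts. The 6 hearts without ERRα again lay below the other 6. It fell by 0.48 with ERRα loss (SE 0.09, adjusted p = 0.00491), and was called whichever array was left out. Without the set of 4 the change was -0.39 and the call was lost (adjusted p = 0.0994). It fell by 0.54 in ERRα KO (adjusted p = 0.0371) and by 0.45 in KI:KO against WT (adjusted p = 0.0496). The first of these calls did not survive omission of a WT array, of ErbB2 KI replicate 1 or 3, or of ERRα KO replicate 2 or 3 (adjusted p 0.053 to 0.15), nor the second that of any 1 of 10 arrays, all but ERRα KO replicate 1 and KI:KO replicate 2 (adjusted p 0.0557 to 0.171). Slc25a35, its closest relative, was 7.01, 6.73 and 7.02 in WT and 6.96 to 7.03 in KI:KO hearts, and its averaged change was 0.05 (95% interval -0.11 to 0.21). The 5 other carriers of no settled substrate, Slc25a43, Slc25a45, Slc25a47, Slc25a53 and Slc25a54, differed from WT by -0.16 to 0.18.

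Slc25a36 carries pyrimidine nucleotides into mitochondria, where they serve the synthesis of mitochondrial DNA and RNA. It lies on chromosome 9 from 97075281 to 97111041. Its values were 7.43, 7.53 and 7.39 in WT hearts, 7.20, 7.37 and 7.35 in ErbB2 KI hearts, 7.06, 7.22 and 7.04 in ERRα KO hearts and 6.84, 6.88 and 6.96 in the KI:KO hearts. The KI:KO hearts were the lowest 3 of the 12, and ErbB2 KI replicate 1 lay just below ERRα KO replicate 2. Slc25a36 fell by 0.38 with ERRα loss (SE 0.06, adjusted p = 0.00323) and by 0.56 in KI:KO against WT (SE 0.09, adjusted p = 0.00369). Both calls held whichever array was left out, and the averaged fall was the only one of the 5 still called without the set of 4 arrays (-0.39, adjusted p = 0.0302). The fall of 0.41 in KI:KO against ErbB2 KI (adjusted p = 0.0242) did not survive omission of replicate 2 or 3 of ErbB2 KI or of replicate 1 or 2 of KI:KO (0.0708 to 0.095 after adjustment). Slc25a33, the other pyrimidine nucleotide carrier, was 6.90, 6.84 and 6.92 in WT and 6.77, 7.01 and 6.73 in KI:KO hearts, with an averaged change of -0.03 (95% interval -0.18 to 0.11).

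Slc25a39 imports glutathione into the matrix, as shown in human and mouse cells. It lies on chromosome 11 from 102402969 to 102408675. It was 9.25, 9.16 and 9.19 in WT hearts, 9.26, 9.35 and 9.26 in ErbB2 KI hearts, 9.56, 9.58 and 9.43 in ERRα KO hearts and 9.65, 9.91 and 9.76 in the KI:KO hearts. It was the only member whose 6 hearts without ERRα all lay above the 6 with it. Slc25a39 rose by 0.40 with ERRα loss (SE 0.06, adjusted p = 0.0022) and by 0.58, or 1.49-fold, in KI:KO against WT (SE 0.09, adjusted p = 0.00299). Both calls held whichever array was left out, and without the set of 4 the changes were 0.38 (adjusted p = 0.0558) and 0.56 (adjusted p = 0.0539). The rise of 0.48 in KI:KO against ErbB2 KI (adjusted p = 0.011) was lost without ErbB2 KI replicate 1 (adjusted p = 0.052).

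The relatives of Slc25a39 in iron and glutathione transport were not called. Slc25a40, the closest, was 6.94, 6.80 and 6.46 in WT and 6.74, 7.20 and 7.14 in KI:KO hearts (0.29, adjusted p = 0.396). Slc25a28, mitoferrin of non-erythroid cells, was 7.97, 8.26 and 8.02 in WT and 7.78, 7.77 and 7.68 in KI:KO hearts (-0.34, SE 0.11, adjusted p = 0.119). Slc25a37, mitoferrin of erythroid cells, was 7.10, 7.32 and 7.15 in WT hearts, 6.92, 6.99 and 7.05 in ErbB2 KI hearts, 7.26, 7.22 and 6.88 in ERRα KO hearts and 7.54, 7.44 and 9.66 in the KI:KO hearts. Its change of 1.02 in KI:KO against WT was the largest of any member and did not pass (adjusted p = 0.242), and without KI:KO replicate 3 it was 0.30 (adjusted p = 0.249). In that heart Slc4a1, the red-cell anion exchanger, was 8.38 against 5.42 to 5.73 in the other 11, and Epb42, a red-cell membrane protein, was 4.29 against 3.23 to 3.99. These were the 2 of 8 erythroid markers measured, averaging 6.33 there and 4.39 to 4.86 elsewhere. Tent5c (8.67 against 5.70 to 6.27) and Trim10 (6.10 against 4.06 to 4.51) were also highest there and were chosen after their values were seen. Their part in the Slc25a37 value was not tested.

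Slc25a5 and Slc25a4 encode the ADP/ATP carriers ANT2 and ANT1, ANT1 being the main form of heart and muscle. Slc25a5, on chromosome X from 36795597 to 36798808, was 11.43, 11.33 and 11.34 in WT hearts, 11.46, 11.25 and 11.49 in ErbB2 KI hearts, 11.49, 11.69 and 11.59 in ERRα KO hearts and 11.70, 11.88 and 11.81 in the KI:KO hearts. The KI:KO hearts were the highest 3 of the 12, and the lowest ERRα KO heart equalled the highest ErbB2 KI heart at 2 decimals. Slc25a5 rose by 0.31 with ERRα loss (SE 0.07, adjusted p = 0.016), and was called whichever array was left out. Without the set of 4 the change was 0.30 and the call was lost (adjusted p = 0.118). Its rise of 0.43 in KI:KO against WT (SE 0.10, adjusted p = 0.0223) did not survive omission of a WT array or of replicate 2 or 3 of KI:KO (0.051 to 0.0819 after adjustment). That of 0.40 against ErbB2 KI (adjusted p = 0.0433) was lost without any 1 of 10 arrays, all but ERRα KO replicates 1 and 2 (adjusted p 0.0573 to 0.16).

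Slc25a4, on chromosome 8 from 46207168 to 46211062, was 11.62, 11.57 and 11.67 in WT hearts, 11.59, 11.52 and 11.57 in ErbB2 KI hearts, 11.40, 11.53 and 11.50 in ERRα KO hearts and 11.29, 11.53 and 11.45 in the KI:KO hearts. Its averaged change was -0.14 (SE 0.06, adjusted p = 0.255). Slc25a31, the testis form, was 3.79 to 4.32 over all 12 hearts. Within each heart, Slc25a5 minus Slc25a4 was -0.33 to -0.08 in the 6 with ERRα and 0.09 to 0.40 in the 6 without, so the sets did not overlap. Its mean was -0.25 ± 0.07 (SD, n = 3) in WT hearts, -0.16 ± 0.10 in ErbB2 KI hearts, 0.12 ± 0.04 in ERRα KO hearts and 0.37 ± 0.03 in the KI:KO hearts. The sign of this difference says nothing of which mRNA is more abundant, since probe sets can differ in response. The pair Slc25a42 and Slc25a16 was also apart (0.70 to 0.95 with ERRα and 0.17 to 0.69 without), while Slc25a36 minus Slc25a33 (0.41 to 0.69 and -0.13 to 0.44) and Slc25a39 minus Slc25a40 (2.31 to 2.73 and 2.51 to 3.06) overlapped. The pairs were chosen because their first member was called, so these differences carry no test. Slc25a34 and Slc25a35 were not taken as a pair.

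**Figure D2:**
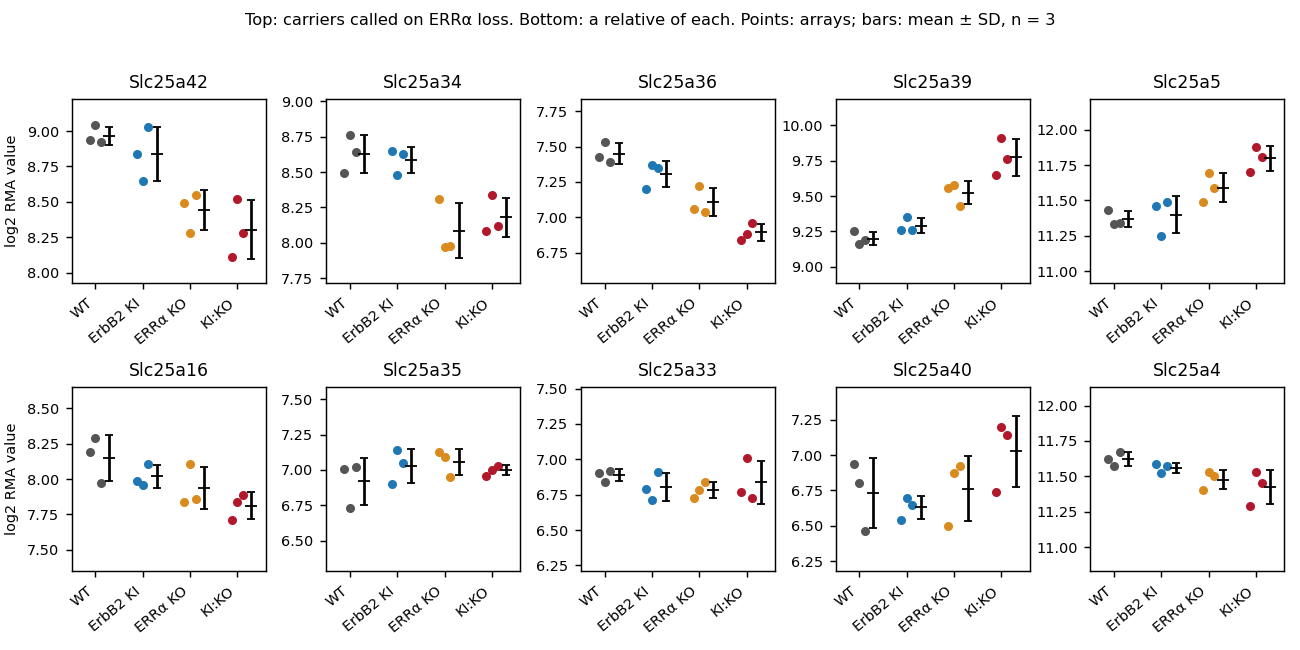
Log2 RMA values of the 5 called carriers (top) and a relative of each (bottom) in the 12 hearts; points are arrays and bars the mean ± SD of 3, and every panel spans the same log2 range. All 6 hearts without ERRα lie beyond the other 6 for Slc25a42, Slc25a34 and Slc25a39 (9.16 to 9.35 against 9.43 to 9.91) in the top row and for no carrier in the bottom row.

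**Figure D3:**
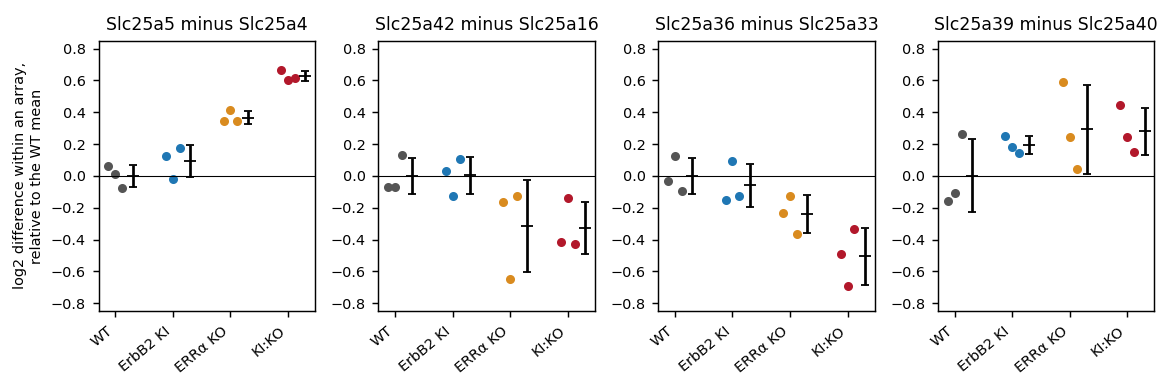
Log2 difference between 2 carriers of a pair within each array, set relative to the WT mean, in the 4 groups (points are arrays, bars mean ± SD, n = 3). Slc25a5 minus Slc25a4 and Slc25a42 minus Slc25a16 separate hearts with and without ERRα, and the other pairs shown overlap.

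ERRα loss was measured in 2 backgrounds that share no array, as ERRα KO minus WT and as KI:KO minus ErbB2 KI. For Slc25a42 the changes were -0.53 and -0.54, for Slc25a34 -0.54 and -0.41, for Slc25a36 -0.34 and -0.41, for Slc25a39 0.32 and 0.48 and for Slc25a5 0.23 and 0.40. The averaged effect chose these 5, so their shared direction is a description. Across the 45 members, which share arrays and are not independent, the changes in the 2 backgrounds had r = 0.33 and rho = 0.47, with 29 (64.4%) of the same sign. The same values over all genes were r = 0.40, rho = 0.27 and 58.6%. Slc25a1 and Slc25a37 lay farthest from equal change.

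**Figure D4:**
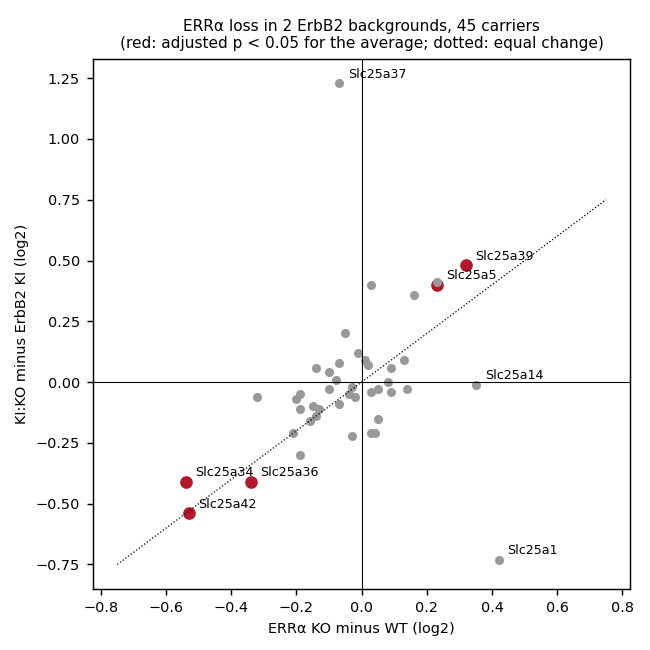
Each point is 1 of 45 carriers, with its log2 change on ERRα loss in mice without the knock-in (x axis) and in ErbB2 KI mice (y axis); red points passed for the averaged effect and the dotted line marks equal change. The 5 red points lie near the line, Slc25a1 (0.42 and -0.73) and Slc25a37 (-0.07 and 1.23) far from it.

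Slc25a1 exports citrate from the matrix, which feeds cytosolic fatty acid synthesis. It was 7.31, 7.29 and 7.06 in WT hearts, 8.31, 8.30 and 7.49 in ErbB2 KI hearts, 7.66, 7.50 and 7.74 in ERRα KO hearts and 7.41, 7.25 and 7.25 in the KI:KO hearts. Both single models lay above WT, whereas KI:KO overlapped WT. The change was 0.82 in ErbB2 KI (SE 0.19, 95% interval 0.41 to 1.22, adjusted p = 0.465), 0.42 in ERRα KO (adjusted p = 0.374) and 0.08 in KI:KO (adjusted p = 0.892), and the interaction was -1.15 (adjusted p = 0.319). KI:KO minus ErbB2 KI was -0.73, which did not pass (adjusted p = 0.0506). It passed without ErbB2 KI replicate 3 (adjusted p = 0.00162) and without the set of 4, which includes that heart (adjusted p = 0.00885). It did not pass on leaving out any other single array (adjusted p 0.0621 to 0.195). Without ErbB2 KI replicate 3 the ErbB2 KI value was 1.09 (adjusted p = 0.00636) and the interaction -1.42 (adjusted p = 0.0104). Without the set of 4 arrays they were 1.12 (adjusted p = 0.0276) and -1.50 (adjusted p = 0.0398). For these 2, leaving out any other single array gave adjusted p of at least 0.476 and at least 0.262. With the set as a block the adjusted p were 0.242 and 0.189, and 0.028 for KI:KO minus ErbB2 KI. Acly, which cleaves the exported citrate, was 8.56, 8.33 and 7.63 in the ErbB2 KI hearts against 7.45 to 7.53 in WT. Fasn, fatty acid synthase, was 10.21, 9.90 and 8.36 against 7.26 to 7.55. Adipocyte markers averaged 7.31, 7.24 and 6.69 in the same ErbB2 KI hearts, 6.40 to 6.71 in WT, 6.78 to 7.04 in ERRα KO and 6.34 to 6.72 in KI:KO hearts. Of the 6 adipocyte markers measured, 0 were called in ErbB2 KI against WT, with a median change of 0.46. Of these Cidea, a lipid-droplet protein, fell by 0.71 in ERRα KO (adjusted p = 0.0258) and by 0.89 in KI:KO (adjusted p = 0.00416) against WT. The first call was lost without any 1 array of WT or ERRα KO (adjusted p up to 0.116) and without the set of 4 (-0.78, adjusted p = 0.0893). The 4 neuron and glia markers measured averaged 4.58 to 4.67 in WT, 5.28 to 5.68 in ErbB2 KI, 5.0 to 5.80 in ERRα KO and 4.50, 4.52 and 5.43 in KI:KO hearts, with 0 called against WT in any genotype. Snap25, a synaptic protein among them, differed from WT by 2.07 in ErbB2 KI (adjusted p = 0.735) and 2.39 in ERRα KO (adjusted p = 0.0839). The part of fat and nerve tissue in the Slc25a1 values was not tested. The other di- and tricarboxylate carriers, Slc25a10, Slc25a11 and Slc25a21, differed from WT by -0.19 to 0.05.

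**Figure D5:**
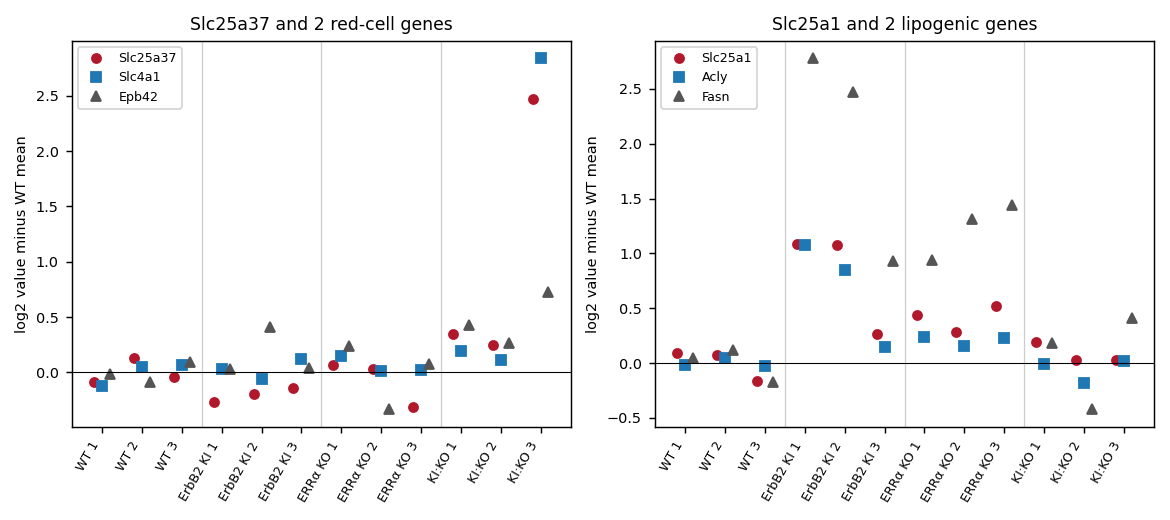
Log2 value minus the WT mean in each of the 12 hearts (x axis, by group and replicate) for Slc25a37 with the red-cell genes Slc4a1 and Epb42 (left) and for Slc25a1 with the lipogenic genes Acly and Fasn (right). Slc25a37 and Slc4a1 stand out in KI:KO replicate 3 (9.66 and 8.38), and Slc25a1, Acly and Fasn are highest in ErbB2 KI replicates 1 and 2.

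The remaining members were not called. Slc25a3, which supplies phosphate for ATP synthesis, differed from WT by -0.03 to 0.01. The aspartate and glutamate carriers Slc25a12, Slc25a13, Slc25a18 and Slc25a22, which serve the malate-aspartate shuttle and glutamate uptake, differed from WT by -0.18 to 0.13. Carriers of other amino acids differed from WT by -0.20 to 0.20, with 0 of 5 called in any comparison with WT. Among the ATP-Mg/phosphate carriers Slc25a24 was 6.86, 7.01 and 6.75 in WT and 7.30, 6.82 and 7.55 in KI:KO hearts. Its change was 0.35 (adjusted p = 0.255, and 0.0248 without KI:KO replicate 2). Slc25a23, Slc25a25 and Slc25a41 of this group differed from WT by -0.32 to 0.21. Of the uncoupling-protein-like carriers, Slc25a14 was 4.32, 4.38 and 4.39 in WT, 4.63, 4.81 and 4.70 in ERRα KO and 4.0, 4.40 and 4.62 in KI:KO hearts (0.35 in ERRα KO, adjusted p = 0.276). Slc25a30 was 6.22, 6.22 and 6.36 in WT and 6.46, 6.52 and 6.61 in KI:KO hearts (0.27, adjusted p = 0.263), and Slc25a27 differed from WT by -0.14 to 0.05. Slc25a48, the choline carrier, and Slc25a46, an outer-membrane member with a role in mitochondrial dynamics, differed from WT by -0.12 to 0.29.

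Carriers under other symbols and genes that work beside the family were read from 2 lists. Of 22 relatives and other transport proteins of mitochondrial membranes, Ucp1 and Tspo rose in ERRα KO, where 1.14% of all genes were called higher and 1.21% lower. In KI:KO against WT Sfxn3 and Tspo rose and Ucp3 and Micu3 fell, beside 2.94% of all genes higher and 2.66% lower. The medians of the list were 0 and 0.01, against 0 and -0.01 over all genes. Tspo, an outer-membrane protein abundant in macrophages, rose by 0.83 (adjusted p = 0.00569) and 1.03 (adjusted p = 0.000841). Both calls held whichever array was left out and without the set of 4 (adjusted p = 0.0451 and 0.00951). Ucp1, the uncoupling protein of brown fat, was 5.58, 4.81 and 4.35 in WT hearts, 9.15, 7.37 and 6.99 in ErbB2 KI hearts, 6.69, 7.93 and 8.21 in ERRα KO hearts and 5.70, 4.44 and 5.38 in the KI:KO hearts. Both single models lay above WT and KI:KO overlapped it, as for Slc25a1. Ucp1 rose by 2.70 in ERRα KO (adjusted p = 0.0284), while the difference of 2.92 in ErbB2 KI (adjusted p = 0.252) and that of 0.26 in KI:KO (adjusted p = 0.89) did not pass. It fell by 2.66 in KI:KO against ErbB2 KI (adjusted p = 0.0219), a call lost without ErbB2 KI replicate 1 or KI:KO replicate 2 (adjusted p up to 0.0852) and without the set of 4 (-3.19, adjusted p = 0.0687). Ucp3, its homologue of muscle, fell by 1.05 with both alleles (adjusted p = 0.0365). Sfxn3 rose by 0.46 (adjusted p = 0.0373) and Micu3, a regulator of the calcium uniporter, fell by 0.43 (adjusted p = 0.0371). Each of these 4 calls against WT was lost on omitting any of several single arrays: any of the 3 WT arrays for all 4, with replicate 2 or 3 of ERRα KO for Ucp1 (adjusted p up to 0.123). For Ucp3 (up to 0.144) replicate 3 of ERRα KO and replicates 1 and 2 of KI:KO were added, for Sfxn3 (up to 0.131) replicates 1 and 3 of ErbB2 KI, 3 of ERRα KO and 2 and 3 of KI:KO, and for Micu3 (up to 0.152) replicates 1 and 3 of ERRα KO and all 3 of KI:KO. Without the set of 4 Ucp3 was still called (-1.42, adjusted p = 0.0167), and Ucp1 (2.48, adjusted p = 0.197), Sfxn3 (0.33, adjusted p = 0.257) and Micu3 (-0.47, adjusted p = 0.137) were not. Of 13 proteins that import and insert carriers, Tomm70a alone was called, beside the same shares of all genes. The medians of this list were -0.16 in ERRα KO and -0.03 in KI:KO against WT. Tomm70a, the outer-membrane receptor that takes carrier precursors from the cytosol, fell by 0.52 in ERRα KO (SE 0.09, adjusted p = 0.0101), by 0.39 in KI:KO (SE 0.09, adjusted p = 0.0242) and by 0.40 averaged (adjusted p = 0.0024). The averaged call held whichever array was left out and without the set of 4 (adjusted p = 0.0434). The call in ERRα KO did not survive omission of WT replicate 3 (adjusted p = 0.0529), nor that in KI:KO the omission of WT replicate 2 or 3 or of KI:KO replicate 3 (up to 0.0976), and without the set of 4 neither passed (-0.52, adjusted p = 0.0811, and -0.30, adjusted p = 0.22). In ERRα KO against WT 0 of 10 macrophage markers (median change 0.44), 0 of 7 fibroblast markers (0.35) and 0 of 4 neuron and glia markers (0.54) were called, and of 6 adipocyte markers (0.55) only Cidea, which was lower. For ERRα loss averaged over both ErbB2 genotypes, 8 of 10 macrophage markers (median change 0.6) and 2 of 7 fibroblast markers (0.53) were called higher. For the same effect 1 of 6 adipocyte markers (0.09) was called lower and 0 of 4 neuron and glia markers (0.07) were called. The part of other cell types in these values was not tested.

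Members neighbour each other on the genome in 4 places. Slc25a43 and Slc25a5 lie 18290 bases apart on chromosome X, and Slc25a43 was 3.58 to 4.46 over all 12 hearts, with a change of 0.13 in KI:KO against WT where Slc25a5 rose. Slc25a54 and Slc25a24 on chromosome 3, Slc25a41 and Slc25a23 on chromosome 17 and Slc25a29 and Slc25a47 on chromosome 12 held no called member.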

How the data were processed

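The authors labelled and hybridized total RNA of 12 hearts and ran RMA with Affymetrix Expression Console (version 1.4.1), and the values they deposited, log2 and not raw intensities, were taken as given. For each gene the probe set used was the brightest, by its mean over the 12 arrays, of those with 1 annotated gene. 1 family gene is not reported here. Limma (version 3.58.1, R 4.3.3) was fitted to all 22180 genes with 4 group means (8 residual and 3.81 prior degrees of freedom). Adjusted p are two-sided Benjamini-Hochberg values over all genes. Replicates are separate hearts by the labels, and 3 arrays a group limit the precision. The fit was tested on simulated data.

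Members, gene lists and tests were chosen with earlier results of these data known. Every called member is named, as are members at the methods' threshold against WT and partners of either in their substrate group. The alternatives were the methods' ANOVA, a fit restricted to the groups compared, removal of dim genes, all probe sets, averaged probe sets of a gene, quantile normalization, median centring, an intensity trend, array weights, a replicate block and leaving out each array. Blocking or leaving out the set of 4 arrays was chosen after seeing the data. Python 3.11.15 with matplotlib 3.10.9 drew the figures.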

Additional observations from a re-analysis of the deposited data

Results flagged for a closer look

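For each member the 6 hearts with ERRα and the 6 without were searched for a heart far from the others, which found 7 in 90 searches, where chance finds about 1 in 20. Slc25a37 was 9.66 in KI:KO replicate 3, with the next heart at 7.54. Slc25a11 was 11.23 and Slc25a23 was 9.19 in KI:KO replicate 1, with the next hearts at 11.45 and 8.71. Slc25a28 was 8.08 in ERRα KO replicate 2 (next 7.82) and Slc25a43 was 4.33 in KI:KO replicate 2 (next 4.10). Among the hearts with ERRα, Slc25a17 was 6.32 in ErbB2 KI replicate 3 (next 6.42) and Slc25a21 was 4.29 in WT replicate 2 (next 3.84).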

How the results depend on the processing

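Changes were recomputed only for the 39 pairs of a member and a comparison that were called or met the methods' threshold by limma. None of the 928 recomputed values reversed, which is a weak check, since pairs picked for a large change seldom change sign. Of the 928, 805 kept their side of the threshold, 93 lost a call and 30 gained one. For ERRα loss averaged over both ErbB2 genotypes 5 members were called, 5 to 6 on leaving out each array and 1, Slc25a36, without the set of 4 arrays. For KI:KO against WT the 5 calls became 3 to 5 on leaving out each array, 0 by the methods' ANOVA with adjustment, 3 in a fit of only the groups compared, 3 over all probe sets, 1 without the set of 4, and 8 by ANOVA and 10 by limma at the methods' threshold. For ERRα KO against WT the 1 call became 0 to 2 on leaving out each array, 0 by the adjusted ANOVA, 0 with only the groups compared, 0 over all probe sets, 0 without the set of 4, 2 with median centring, 2 with the set as a block, 3 with the filter on dim genes, 3 with array weights, 4 with an intensity trend and 7 by either test at the methods' threshold. For KI:KO against ErbB2 KI the 4 calls became 1 to 4 on leaving out each array, 0 by the adjusted ANOVA, 0 with only the groups compared, 1 over all probe sets, 1 without the set of 4 (Slc25a1) and 11 by limma at the methods' threshold. For ErbB2 KI against WT the count of 0 became 0 to 1 on leaving out each array, 1 without the set of 4 and 1 by either test at the methods' threshold. For the interaction it became 0 to 1 on leaving out each array, 1 without the set of 4, and 2 by ANOVA and 1 by limma at the methods' threshold. For KI:KO against ERRα KO it became 1 by ANOVA and 2 by limma at that threshold. Leaving out the set of 4 leaves 2 arrays a group. The causes were not tested.

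With the replicate block the calls were 5 for averaged ERRα loss, 3 in KI:KO against WT, 0 in ERRα KO against WT and 2 in KI:KO against ErbB2 KI, with no call changed in the other comparisons. The labels give same-numbered arrays nothing in common but the number. The authors report killing mice in rotation between genotypes, and whether a number marks such a round is not stated and was not tested. Residual correlations of the 18 same-numbered pairs were -0.19 to 0.20, and 1 of 12 arrays had its best partner in its own number.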
